A study of Mus musculus and Homo sapiens with 14 samples.

Results

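The genes described here are 30 mouse genes of mitosis and the spindle, taken as a list of symbols and followed through every mouse library of a co-culture experiment. All 30 were found among the 35288 gene identifiers of each of 2 abundance tables, and all 30 passed the filter on low values in both. The study grew murine Oli-neu cells, labelled as oligodendrocyte precursors, and murine MB1 cells, a line of sonic hedgehog medulloblastoma taken from tumours of Atoh1-cre:SmoM2 mice at postnatal day 12. Oli-neu grew alone, beside MB1, or beside the human Group 3 medulloblastoma line D341, and MB1 grew alone or beside Oli-neu. Partner cells shared the medium across 30 mm culture inserts with 0.4 µm pores. An insert is listed for the co-cultures only, so partner and insert cannot be told apart in comparisons with a line alone. Every culture, those grown alone included, received DMEM/F-12 with B-27 and N-2, EGF and bFGF at 20 ng/mL each, and penicillin/streptomycin. In Atoh1-cre:SmoM2 mice, Cre under the promoter of the granule neuron precursor gene Atoh1 switches on an active form of the hedgehog transducer Smoothened, and Oli-neu is a precursor line immortalised with an activated neu oncogene. The 5 mouse groups had 2 libraries each, titled with the numbers 1 and 2 and called biological replicates by the study, so p values rest on the spread within pairs of libraries, pooled over the groups of a line. What the numbers mark, how long the cells shared medium and which cells grew in the insert are not given in the sources used here. Values are TPM, the share of transcripts in a library, corrected for their length and scaled to a fixed total, and the sequencing depth behind them is unknown.

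Mitosis begins when cyclin B binds and activates the kinase Cdk1, after which Plk1 and the Aurora kinases drive spindle assembly. Kinetochores attach chromosomes to microtubules, and the spindle checkpoint holds back the anaphase-promoting complex until all are attached. Cdc20 then activates that complex, which marks cyclin B for destruction, and the central spindle and its partners complete cytokinesis. Transcripts of most of these genes build up in G2 and mitosis, through promoters that commonly carry CCAAT boxes bound by NF-Y and a cell cycle element, the CHR, bound by MuvB complexes. In bulk RNA, fewer cells in mitosis and less of these transcripts in each cell cannot be told apart.

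Promoter sequences show what the genes share beyond their function, and 5 are printed because the results below turn on these genes: Ccnb2, Cdk1 and Plk1 for the kinase that starts mitosis and its partners, Top2a for the difference between library numbers, and Birc5 as a gene of the list with no match. Each runs 5′ to 3′ on the gene's strand, from 250 bases before to 50 bases after the start site, as given by RefSeq for GRCm38.p6. Capitals mark TTTGAA (the CHR), its variant TTCGAA, and CCAAT, on either strand, so that TTCAAA and ATTGG are matches on the opposite strand. The window of Ccnb2 (ENSMUSG00000032218) lies at chr9:70421505-70421804 on the minus strand, that of Cdk1 (ENSMUSG00000019942) at chr10:69352863-69353162 on the minus strand, that of Plk1 (ENSMUSG00000030867) at chr7:122159185-122159484 on the plus strand, that of Top2a (ENSMUSG00000020914) at chr11:99024140-99024439 on the minus strand and that of Birc5 (ENSMUSG00000017716) at chr11:117848987-117849286 on the plus strand.
Ccnb2: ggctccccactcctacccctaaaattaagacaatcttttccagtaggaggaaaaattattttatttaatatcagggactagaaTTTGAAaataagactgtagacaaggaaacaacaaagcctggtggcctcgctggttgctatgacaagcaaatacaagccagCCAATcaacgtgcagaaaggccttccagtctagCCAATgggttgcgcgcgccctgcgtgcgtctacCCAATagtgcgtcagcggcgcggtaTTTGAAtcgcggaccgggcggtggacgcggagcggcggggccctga
Cdk1: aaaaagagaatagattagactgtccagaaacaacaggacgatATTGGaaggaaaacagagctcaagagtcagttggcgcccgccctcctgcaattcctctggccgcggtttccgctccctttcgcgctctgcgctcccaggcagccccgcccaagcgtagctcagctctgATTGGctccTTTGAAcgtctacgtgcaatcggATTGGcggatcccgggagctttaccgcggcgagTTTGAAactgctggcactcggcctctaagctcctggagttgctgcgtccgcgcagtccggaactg
Plk1: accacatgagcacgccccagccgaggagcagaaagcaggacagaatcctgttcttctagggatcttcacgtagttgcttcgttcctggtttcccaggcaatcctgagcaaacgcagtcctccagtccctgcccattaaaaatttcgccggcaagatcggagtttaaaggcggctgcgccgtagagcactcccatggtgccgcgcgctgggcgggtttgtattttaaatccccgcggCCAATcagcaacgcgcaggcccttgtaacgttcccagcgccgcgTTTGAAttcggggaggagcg
Top2a: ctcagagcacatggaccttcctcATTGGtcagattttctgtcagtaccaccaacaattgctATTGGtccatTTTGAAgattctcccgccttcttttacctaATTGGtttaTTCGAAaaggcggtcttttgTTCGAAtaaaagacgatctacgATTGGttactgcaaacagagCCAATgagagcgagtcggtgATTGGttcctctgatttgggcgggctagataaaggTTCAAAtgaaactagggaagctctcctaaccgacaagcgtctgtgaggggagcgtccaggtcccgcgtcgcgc
Birc5: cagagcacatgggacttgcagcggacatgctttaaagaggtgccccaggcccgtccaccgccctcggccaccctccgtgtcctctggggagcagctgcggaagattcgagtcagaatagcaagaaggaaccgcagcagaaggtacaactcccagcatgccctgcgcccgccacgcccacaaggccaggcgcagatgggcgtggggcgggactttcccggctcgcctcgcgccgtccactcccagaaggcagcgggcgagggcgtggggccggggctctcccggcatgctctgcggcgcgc

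Of the 30 genes, 26 had a promoter in the RefSeq table, and Prc1 had 2 start sites, which gave 27 promoters. Aurkb, Dlgap5, Kif20a and Tpx2 had none. The 2 Prc1 promoters overlap and hold the same matches, which are therefore counted in both. TTTGAA occurred in 21 of the 27 promoters (77.8%), against 17.9% of all 32851 promoters of the same 300-base length. It began within 50 bases of the start site in 19 (70.4%), against 4.94% of all. CCAAT occurred in 21 (77.8%), against 37.4% of all, and at least 2 CCAAT boxes occurred in 13 (48.1%), against 11.7%. Both TTTGAA and CCAAT were present in 18 (66.7%), against 6.95% of all. The variant TTCGAA occurred in 3 promoters (11.1%), those of Bub1, Bub1b and Top2a, against 1.56% of all. Counted by gene, TTTGAA occurred in 20 of the 26 and began within 50 bases of the start site in 18. In the Cdk1 promoter TTTGAA matches began at positions -71 and -15 from the start site, and in the Plk1 promoter the single match began at position 31. Birc5, Nuf2 and Nusap1 carried none of these letters in the window. A match describes the sequence only, and no binding was measured here.

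The lines were first checked against their defining markers. Sox10, a transcription factor of the oligodendrocyte lineage, ranged from 171 to 235 TPM in Oli-neu and reached 0.882 TPM at most in MB1. Zic1, a transcription factor of granule neuron precursors, ranged from 63.7 to 125 TPM in MB1 and reached 0.0322 TPM at most in Oli-neu. Of 9 markers of hedgehog medulloblastoma and granule precursors, 5 reached 1 TPM in MB1 alone. Among them, the hedgehog receptor and target Ptch1 ranged from 14.2 to 18.4 TPM and Zic2 from 22.6 to 30.3 TPM over the MB1 libraries, while the hedgehog target Gli1 reached 0.178 TPM, Atoh1 reached 0.0143 TPM and Barhl1 was listed at 0. The oligodendrocyte factor Olig2 stood at 246 and 228 TPM in MB1 alone. Between 11596 and 12338 genes reached 1 TPM in a library. The share of TPM on pseudogenes was 36.0 to 38.2% for Oli-neu libraries and 25.2 to 26.8% for MB1 libraries. For mitochondrially encoded transcripts it was 1.93 to 4.53% and 5.73 to 9.56%, with the lowest Oli-neu value in library 1 of Oli-neu alone and the highest MB1 value in library 1 of MB1 alone. Within Oli-neu, 409 of 12280 genes differed between the libraries numbered 1 and 2 over the 3 groups (3.33% called by limma, adjusted p under 0.05), so each comparison is also given within the numbers.

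The 30 genes were detected in every culture, at levels from 5.42 TPM for Ttk to 323 TPM for Top2a. Their summed level was 1571 and 1504 TPM in libraries 1 and 2 of Oli-neu alone, 1391 and 1073 TPM with MB1, and 1288 and 1259 TPM with D341. In MB1 it was 1813 and 1563 TPM alone, and 1216 and 1142 TPM with Oli-neu. Both lines therefore had a lower sum in every co-culture library than in either library grown alone, and library 2 of Oli-neu with MB1 stood lowest of all 10. A list of 40 DNA replication genes, which act in S phase, gave the same separation: 825 and 831 TPM in Oli-neu alone, 621 and 583 TPM with MB1, 674 and 618 TPM with D341, 1644 and 1445 TPM in MB1 alone and 1023 and 1053 TPM in MB1 with Oli-neu. The ratio of the mitosis sum to the replication sum lay between 1.81 and 2.24 in Oli-neu and between 1.08 and 1.19 in MB1. Its Oli-neu maximum was in library 1 of Oli-neu with MB1, where the mitosis sum was nearest to that of Oli-neu alone.

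**Figure D1:**
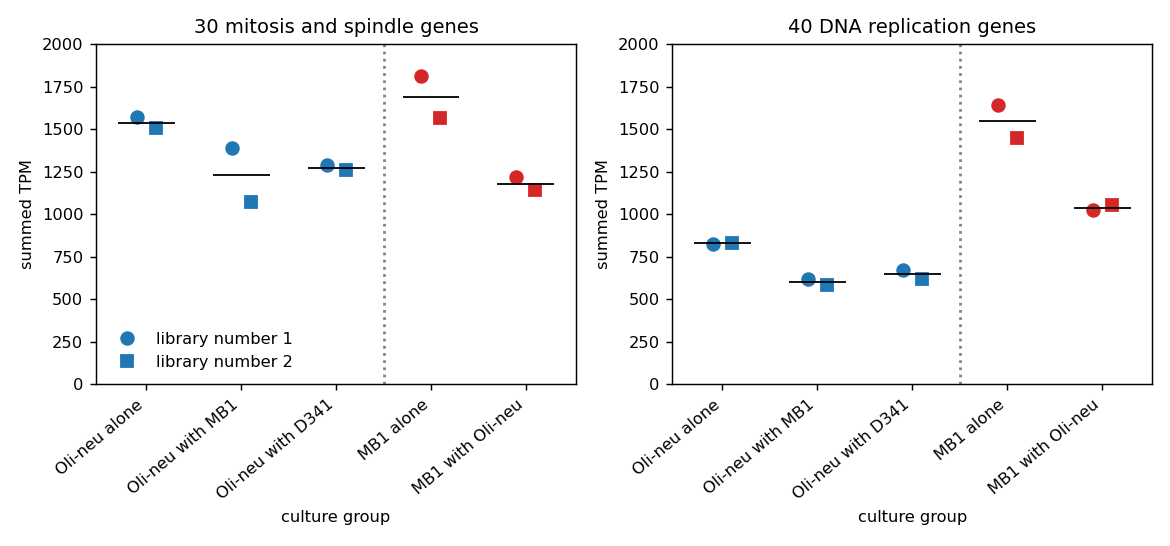
Summed TPM of the 30 mitosis and spindle genes (left) and of 40 DNA replication genes (right) in each library, with circles for library number 1, squares for number 2 and bars for the mean of a group; a dotted line parts Oli-neu (blue) from MB1 (red), whose tables were normalized separately. The mitosis sums of Oli-neu with MB1, 1391 and 1073 TPM, lie far apart, and those of Oli-neu with D341, 1288 and 1259 TPM, lie close together.

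Among the kinases that start mitosis, Cdk1 was the most abundant in all libraries. Cdk1 was at 188 and 183 TPM in libraries 1 and 2 of Oli-neu alone, 152 and 128 TPM with MB1 and 134 and 163 TPM with D341, and in MB1 it was at 240.3 and 224 TPM alone and 153 and 127 TPM with Oli-neu. No co-culture library reached the level of its line alone. Of all genes, 24% lay below the line alone in this way in Oli-neu with MB1, 44% with D341 and 41.5% in MB1 with Oli-neu. Ccnb1, which encodes cyclin B1, was at 54.4 and 48.2 TPM in Oli-neu alone, 51.4 and 32.3 TPM with MB1 and 37.1 and 36.3 TPM with D341, and at 109 and 79.6 TPM in MB1 alone and 73.9 and 68.3 TPM with Oli-neu. Library 1 of Oli-neu with MB1 overlapped Oli-neu alone for this gene, and library 2 was the lowest of the Oli-neu libraries. Ccnb2, the gene of cyclin B2, was at 29.6 and 27.0 TPM, 23.9 and 18.7 TPM and 23.3 and 22.1 TPM in the same 3 Oli-neu groups, and at 37.6 and 32.3 TPM in MB1 alone and 29.8 and 27.3 TPM with Oli-neu. Plk1, the polo-like kinase of spindle and centrosome maturation, was at 27.3 and 27.6 TPM in Oli-neu alone, 22.3 and 20.0 TPM with MB1 and 21.1 and 23.8 TPM with D341, and at 35.0 and 29.9 TPM in MB1 alone and 18.9 and 18.0 TPM with Oli-neu. Its groups grown alone and in co-culture did not overlap. Aurka, the centrosomal Aurora kinase, was at 21.7 and 21.4 TPM, 17.9 and 14.8 TPM and 15.9 and 18.6 TPM in the Oli-neu groups, and at 25.7 and 28.4 TPM and 19.5 and 15.1 TPM in MB1 alone and with Oli-neu.

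The chromosomal passenger complex joins the kinase Aurkb to Birc5 (survivin), which brings it to the centromere. Birc5 was at 50.4 and 48.1 TPM in Oli-neu alone, 33.5 and 28.8 TPM with MB1 and 33.2 and 34.8 TPM with D341, and at 47.0 and 53.6 TPM in MB1 alone and 36.0 and 28.5 TPM with Oli-neu. In Oli-neu its 4 co-culture libraries all lay well below the 2 grown alone. Aurkb was at 68.1 and 76.6 TPM, 64.3 and 52.3 TPM and 58.0 and 64.5 TPM in the Oli-neu groups, and at 68.7 and 57.3 TPM in MB1 alone and 40.8 and 40.7 TPM with Oli-neu. It too separated the co-cultures from both lines grown alone, where the shares of all genes were 24% with MB1, 44% with D341 and 41.5% in MB1 with Oli-neu.

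Kinetochore and checkpoint genes were less uniform. Bub1, a checkpoint kinase, was at 11.7 and 11.4 TPM in Oli-neu alone, 9.98 and 6.78 TPM with MB1, 8.82 and 11.7 TPM with D341, 28.9 and 15.6 TPM in MB1 alone and 11.6 and 13.6 TPM with Oli-neu. Bub1b, which encodes the checkpoint inhibitor BubR1, was at 17.6 and 14.3 TPM, 16.0 and 9.40 TPM and 11.6 and 12.0 TPM in the Oli-neu groups and at 34.3 and 35.9 TPM and 24.1 and 33.1 TPM in the MB1 groups. Library 2 of Oli-neu with D341 was level with Oli-neu alone for Bub1. Both MB1 co-culture libraries lay below MB1 alone, as they did for 41.5% of all genes. Cenpf, a large kinetochore and corona protein, was at 30.3 and 30.6 TPM, 32.7 and 20.1 TPM and 27.0 and 26.8 TPM in the Oli-neu groups, and at 49.9 and 42.4 TPM in MB1 alone and 32.3 and 21.9 TPM with Oli-neu. Cenpe, the kinetochore motor, was at 12.4 and 17.1 TPM, 18.4 and 12.2 TPM and 15.3 and 13.8 TPM in the Oli-neu groups, which overlapped throughout, and at 20.6 and 11.4 TPM in MB1 alone and 9.13 and 8.80 TPM with Oli-neu. Ndc80 and Nuf2 encode subunits of the complex that grips microtubules. Ndc80 was at 20.1 and 17.6 TPM, 21.9 and 15.7 TPM and 23.3 and 17.1 TPM in the Oli-neu groups and at 23.7 and 15.3 TPM and 12.4 and 13.5 TPM in the MB1 groups, and library number 1 was the higher of the pair in all 3 Oli-neu groups. Nuf2 was at 21.4 and 19.6 TPM, 18.2 and 12.0 TPM and 17.3 and 16.2 TPM in Oli-neu and at 40.5 and 32.0 TPM and 27.4 and 28.6 TPM in MB1. Ttk, which encodes the checkpoint kinase Mps1, had the lowest levels of the role, between 5.42 and 8.18 TPM in Oli-neu and between 6.60 and 13.2 TPM in MB1.

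Spindle motors and assembly factors spanned a wide range. Nusap1, a microtubule bundling protein, was at 21.7 and 22.1 TPM in Oli-neu alone, 17.5 and 11.3 TPM with MB1 and 13.8 and 16.3 TPM with D341, and at 35.8 and 44.6 TPM in MB1 alone and 24.1 and 25.1 TPM with Oli-neu. Kif2c, a motor that takes microtubules apart, was at 16.7 and 18.2 TPM, 14.5 and 11.8 TPM and 13.6 and 13.8 TPM in Oli-neu and at 17.6 and 13.9 TPM and 10.3 and 10.2 TPM in MB1. Neither gene overlapped between co-culture and the line alone. The shares of all genes that lay below the line alone in this way were 24% with MB1, 44% with D341 and 41.5% in MB1 with Oli-neu. Tpx2, the activator of Aurka on the spindle, was at 35.0 and 28.3 TPM in Oli-neu alone, 42.5 and 21.8 TPM with MB1 and 28.0 and 23.7 TPM with D341, and at 75.7 and 47.7 TPM in MB1 alone and 43.3 and 48.5 TPM with Oli-neu. Its 2 libraries of Oli-neu with MB1 were the highest and the lowest of the 6 Oli-neu libraries. Kif11, the motor that pushes spindle poles apart, was at 9.78 and 8.31 TPM, 8.94 and 6.06 TPM and 7.11 and 5.95 TPM in Oli-neu, and at 32.8 and 22.9 TPM and 19.3 and 17.2 TPM in MB1. The assembly factors Hmmr, Dlgap5 and Ckap2l ranged from 12.6 to 22.1, 23.1 to 35.9 and 11.8 to 17.2 TPM in Oli-neu, each with its lowest level in library 2 of Oli-neu with MB1. In MB1 they ranged from 14.0 to 22.0, 24.8 to 49.5 and 16.1 to 30.0 TPM.

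Central spindle and cytokinesis genes included some of the more abundant. Prc1, which crosslinks the microtubules of the central spindle, was at 90.9 and 93.0 TPM in Oli-neu alone, 88.7 and 58.6 TPM with MB1 and 56.1 and 66.1 TPM with D341, and at 105 and 103 TPM in MB1 alone and 81.2 and 85.8 TPM with Oli-neu. Kif23 and Racgap1 encode the subunits of centralspindlin, the motor complex that signals for furrowing. Kif23 was at 82.2 and 84.2 TPM, 77.7 and 61.5 TPM and 76.0 and 73.1 TPM in Oli-neu and at 89.0 and 66.1 TPM and 53.9 and 58.5 TPM in MB1, and Racgap1 was at 50.9 and 52.3 TPM, 50.01 and 36.0 TPM and 42.4 and 42.1 TPM in Oli-neu and at 55.5 and 48.9 TPM and 34.6 and 42.4 TPM in MB1. For these 3 genes library 1 of Oli-neu with MB1 lay just below Oli-neu alone and library 2 well below it. Kif20a, a motor of the central spindle, ranged from 8.89 to 15.3 TPM in Oli-neu and from 14.5 to 21.7 TPM in MB1. Anln, which encodes the furrow scaffold anillin, ranged from 23.7 to 34.5 TPM in Oli-neu, with both extremes in Oli-neu with MB1, and from 14.0 to 22.7 TPM in MB1.

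Of the partners of the anaphase-promoting complex, Cdc20 (its activator) was at 71.2 and 90.4 TPM in Oli-neu alone, 63.1 and 66.5 TPM with MB1 and 58.4 and 76.3 TPM with D341, and at 81.2 and 103 TPM in MB1 alone and 76.1 and 62.0 TPM with Oli-neu. Ube2c, its ubiquitin-conjugating enzyme, was at 172 and 178 TPM, 134 and 135 TPM and 150.0 and 156 TPM in the Oli-neu groups, which formed 3 separate pairs, and at 160.1 and 161 TPM and 137 and 97.7 TPM in MB1. Top2a, the topoisomerase that untangles chromosomes, was the most abundant of the 30 in each Oli-neu library, at 323 and 251 TPM alone, 263 and 195 TPM with MB1 and 289 and 218 TPM with D341, and was at 201 and 158 TPM in MB1 alone and 137 and 128 TPM with Oli-neu. Mki67, which encodes the chromosome coat protein Ki-67, was at 20.5 and 17.2 TPM, 21.2 and 12.8 TPM and 20.4 and 12.2 TPM in the Oli-neu groups and at 39.2 and 20.6 TPM and 12.9 and 22.6 TPM in MB1 alone and with Oli-neu. For both chromosome genes, library 1 exceeded library 2 in all 3 Oli-neu groups.

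Side by side, MB1 alone had both libraries above both Oli-neu libraries grown alone for 17 of the 30 genes, and both below for 3, while 10 overlapped. Of the 11182 genes past the filter in both tables, 54.7% lay above in the same way and 19.6% below, so the count above was near that of all genes. The highest ratios of mean level, MB1 over Oli-neu, were 3.08 for Kif11 and 2.20 for Bub1b. The genes below were Top2a (ratio 0.627), Anln (0.72) and Ube2c (0.916). The tables of the lines were normalized separately and no test was made between them.

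**Figure D2:**
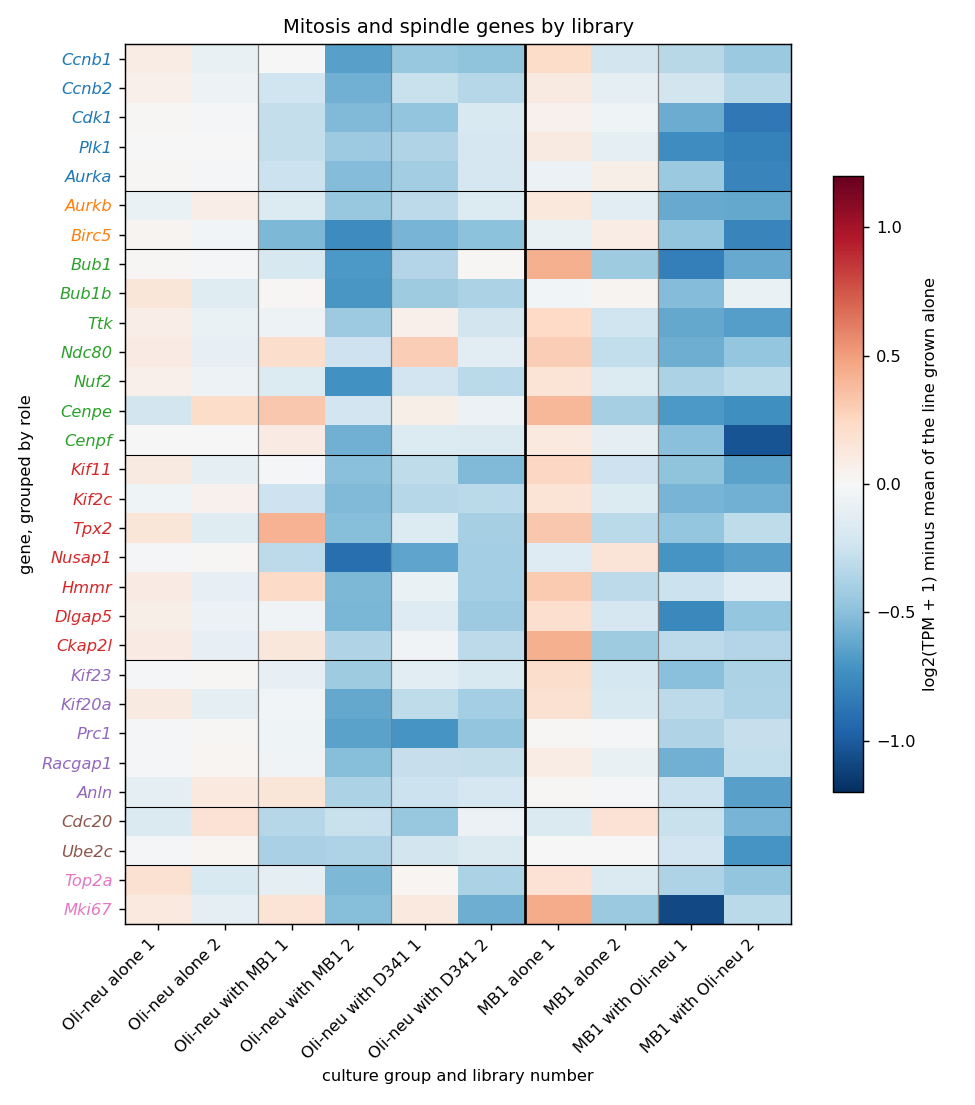
Level of each of the 30 genes in each of the 10 mouse libraries, as log2(TPM + 1) minus the mean of the same line grown alone (red above, blue below), with genes in rows ordered and coloured by role and libraries in columns. The column of library 2 of Oli-neu with MB1 is darker blue than that of library 1 for 28 of 30 genes, and both columns of MB1 with Oli-neu are blue for all 30 genes.

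Oli-neu with MB1 was compared with Oli-neu alone in 1 limma fit over the 3 Oli-neu groups. The fit used log2(TPM + 1), which understates the change of low genes. Counts of lower means here and below are of mean log2(TPM + 1). With MB1, 29 of 30 mitosis genes had a lower mean than in Oli-neu alone, with Cenpe the exception, and their median log2 fold change was -0.32. Over all 12280 genes tested, 62.6% had a lower mean and the median was -0.06. None of the 30 passed an adjusted p of 0.05, and neither did any other gene (0% of genes called by limma). At an unadjusted p under 0.05, 7 of the 30 were lower, Birc5, Ube2c, Plk1, Kif2c, Nusap1, Aurka and Ccnb2, against 4.65% of all genes, and none was higher, against 1.43% of all. The log2 fold change of Birc5 was -0.65 (SE 0.12, adjusted p = 0.715), and that of Nusap1 was -0.61 (SE 0.22, adjusted p = 0.791). Ube2c, with its narrow pairs, was at -0.38 (SE 0.11, adjusted p = 0.723). Plk1 was at -0.36 (SE 0.12, adjusted p = 0.783), Kif2c at -0.39 (SE 0.13, adjusted p = 0.783) and Aurka at -0.39 (SE 0.14, adjusted p = 0.791). Both libraries with MB1 lay below both grown alone for 15 of the 30 genes, against 24% of all genes. By role, the median log2 fold change was -0.39 for the 5 mitotic kinases and cyclins, -0.48 for the 2 chromosomal passengers, -0.25 for the 7 kinetochore and checkpoint genes, -0.26 for the 7 spindle genes, -0.28 for the 5 central spindle genes, -0.34 for the 2 partners of the anaphase-promoting complex and -0.25 for the 2 chromosome genes.

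The difference was larger between libraries numbered 2 than between those numbered 1. Among the libraries numbered 1, 22 of 30 genes were lower with MB1, with a median log2 difference of -0.12, and among those numbered 2 all 30 were lower, with a median of -0.50. Over all 12280 genes, 6239 were lower between libraries numbered 1 and 8591 between those numbered 2, with medians of -0.005 and -0.11. Without library 2 of Oli-neu with MB1, the median was -0.05 and 20 genes were lower, and without library 1 it was -0.52 and 30 were lower. Tpx2 was lower by mean log2 but not by mean TPM, 32.1 with MB1 and 31.7 alone. Without library 1 or library 2 of Oli-neu alone, the median was -0.26 and -0.34. The 7 genes at an unadjusted p under 0.05 became 3 in a fit of only the 4 libraries compared, against 3.6% of all genes. With each library scaled by the median ratio of its genes, 27 were lower and Ndc80 and Tpx2 turned slightly positive, while the split of all genes at an unadjusted p under 0.05 went from 571 lower and 176 higher to 351 and 357. Kinases and passengers were lower in both comparisons, with medians of -0.28 and -0.51 for the kinases and -0.33 and -0.63 for the passengers. Central spindle genes went from -0.03 between libraries numbered 1 to -0.51 between those numbered 2. The replication genes differed less by number, at -0.37 and -0.50.

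Beside D341, 28 of 30 genes had a lower mean than in Oli-neu alone, with Ndc80 and Cenpe the exceptions (Cenpe by mean log2, with mean levels of 14.6 TPM against 14.7), and the median log2 fold change was -0.28. The same Oli-neu libraries served as controls here, so this comparison is not independent of the preceding one. Over all genes, 75.8% had a lower mean and the median was -0.16. No gene passed (0% called by limma). At an unadjusted p under 0.05, 2 of the 30 were lower and none higher, against 12.1% of all genes lower and 1.61% higher. Both libraries with D341 lay below both grown alone for 21 of the 30, against 44% of all genes. In a fit of only the 4 libraries compared, 10 of the 30 were lower at that threshold, against 13% of all genes. With 1 library left out, the median log2 fold change of the 30 ranged from -0.33 to -0.25. The log2 fold change was -0.52 (SE 0.12, adjusted p = 0.32) for Birc5 and -0.59 (SE 0.22, adjusted p = 0.362) for Prc1, the 2 genes past the unadjusted threshold. Next in order of p were Kif2c at -0.33 (SE 0.13, adjusted p = 0.366), Plk1 at -0.28 (SE 0.12, adjusted p = 0.381), Nusap1 at -0.52 (SE 0.22, adjusted p = 0.381) and Aurka at -0.31 (SE 0.14, adjusted p = 0.392). Medians within the library numbers were alike, -0.28 between those numbered 1 and -0.25 between those numbered 2, against -0.13 and -0.18 over all genes. By role, the median was -0.31 for the kinases and cyclins, -0.38 for the passengers, -0.17 for the kinetochore genes, -0.30 for the spindle genes, -0.28 for the central spindle genes, -0.23 for the partners of the anaphase-promoting complex and -0.21 for the chromosome genes. Under median-ratio scaling the median of the 30 was -0.10 with 23 lower, and Bub1, Ttk, Cenpf, Kif23 and Top2a turned slightly positive. The split of all genes at an unadjusted p under 0.05 went from 1486 lower and 198 higher to 445 and 608.

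The partners themselves were compared within Oli-neu, D341 against MB1. The median log2 difference of the 30 genes was 0.06, with 13 lower and 17 higher, while 68.5% of all genes were lower and their median was -0.09. No gene passed (0% called by limma). None of the 30 had an unadjusted p under 0.05, where 4.34% of all genes were lower and 0.79% higher. Ube2c was the only gene of the 30 with both D341 libraries above both MB1 libraries, against 6.6% of all genes, and its difference was 0.18 (SE 0.11, adjusted p = 0.839). The other genes with the smallest p were Bub1 at 0.27 (SE 0.21, adjusted p = 0.851), Prc1 at -0.24 (SE 0.22, adjusted p = 0.876), Birc5 at 0.13 (SE 0.12, adjusted p = 0.876), Ttk at 0.16 (SE 0.18, adjusted p = 0.897) and Nuf2 at 0.17 (SE 0.20, adjusted p = 0.916). The sign differed with the library number: the median was -0.16 between the libraries numbered 1, where 26 genes were lower with D341, and 0.21 between those numbered 2, where 2 were lower. For all 12280 genes the medians were -0.11 and -0.07, with 8007 and 7938 lower. Without library 1 of Oli-neu with MB1, 0 of the 30 were lower with D341, and without its library 2, 25 were. Under median-ratio scaling the median was 0.17 with 5 lower, and the split of all genes at an unadjusted p under 0.05 went from 533 lower and 97 higher to 236 and 236.

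MB1 cells beside Oli-neu gave the lowest median. All 30 genes had a lower mean than in MB1 alone, and their median log2 fold change was -0.50. This compares with 70.9% lower and a median of -0.17 over all 12407 genes tested. None passed, nor did any other gene (0% called by limma). At an unadjusted p under 0.05, 10 of the 30 were lower and none higher, against 12.6% of all genes lower and 3.02% higher. The median log2 fold change of the 30 was -0.63 without library 2 of MB1 alone and -0.32 without its library 1. It was -0.51 and -0.49 without library 1 and library 2 of MB1 with Oli-neu. Both co-culture libraries lay below both MB1 libraries grown alone for 26 of the 30, all but Tpx2, Hmmr, Ckap2l and Mki67, against 41.5% of all genes. The log2 fold change was -0.78 (SE 0.16, adjusted p = 0.282) for Plk1 and -0.73 (SE 0.17, adjusted p = 0.282) for Cdk1. Nusap1 was at -0.68 (SE 0.17, adjusted p = 0.282) and Aurkb at -0.61 (SE 0.16, adjusted p = 0.282). Birc5 was at -0.63 (SE 0.18, adjusted p = 0.285) and Aurka at -0.62 (SE 0.18, adjusted p = 0.285). The other 4 past the unadjusted threshold were Cenpf, Kif2c, Ttk and Dlgap5, with log2 fold changes of -0.77, -0.57, -0.64 and -0.62. By role, the median was -0.62 for the kinases and cyclins and also for the passengers, -0.64 for the kinetochore genes, -0.56 for the spindle genes and for the chromosome genes, -0.43 for the central spindle genes and -0.44 for the partners of the anaphase-promoting complex.

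Here too the library numbers differed, in the other direction. Between the MB1 libraries numbered 1 all 30 genes were lower with Oli-neu, with a median of -0.63, and between those numbered 2, 26 were lower, with a median of -0.28. Of all 12407 genes, 8565 and 7988 were lower, with medians of -0.19 and -0.14. Kinetochore genes had medians of -0.85 and -0.18, while the kinases and cyclins had -0.55 and -0.70. Mki67 differed by -1.53 between the libraries numbered 1 and by 0.13 between those numbered 2. Without library 1 of MB1 alone the median of the 30 was -0.32 with 28 lower, and 112 genes passed, 0 of them among the 30, and without library 2 it was -0.63. Under median-ratio scaling the median was -0.31 with all 30 lower, and 4 had an unadjusted p under 0.05, against 4.68% of all genes. The split of all genes went from 1569 lower and 375 higher to 580 and 838.

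**Figure D3:**
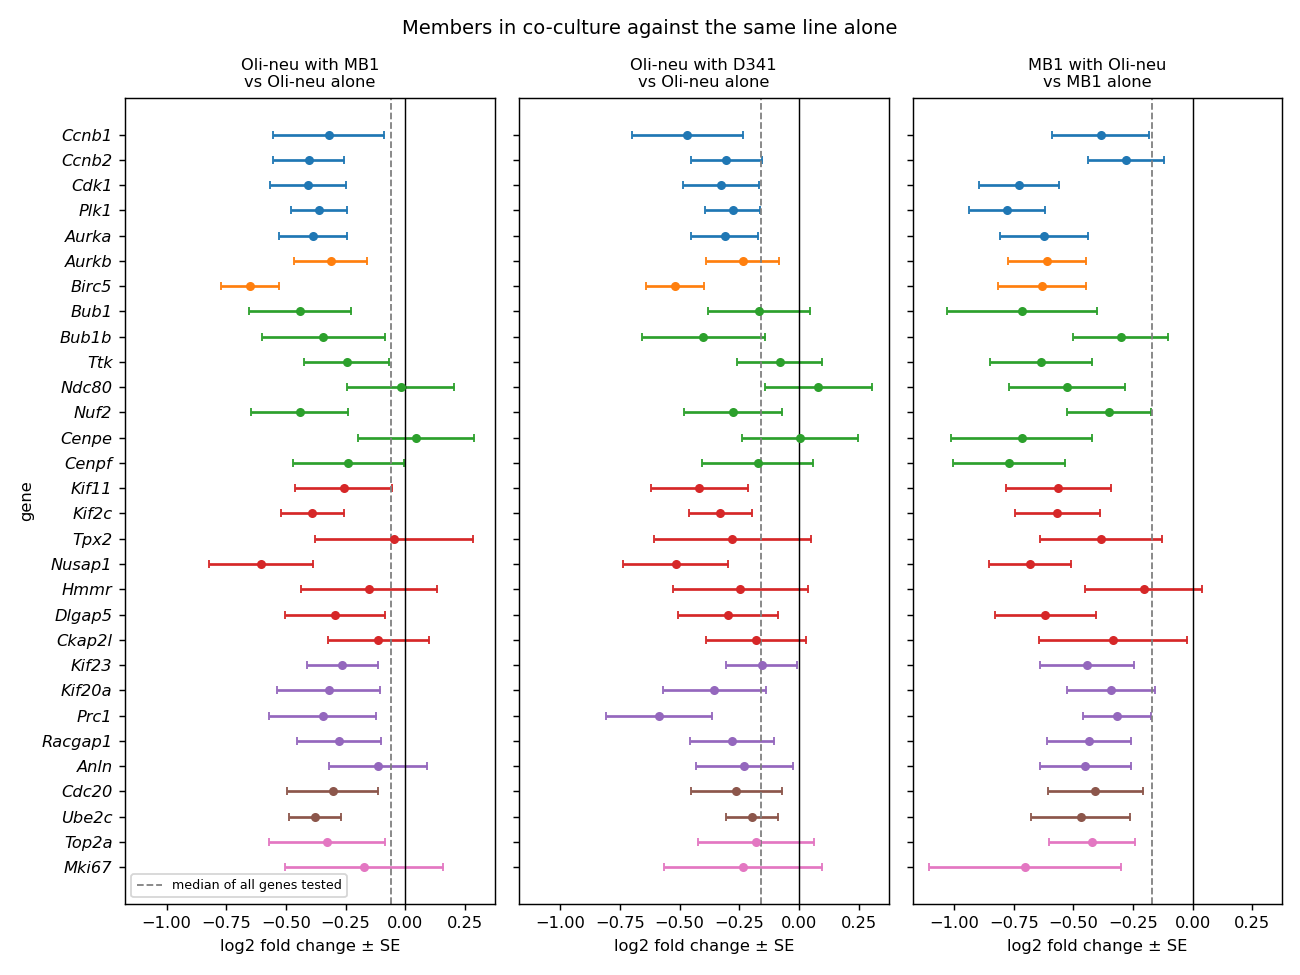
Log2 fold change of each gene in co-culture against the same line alone, with the moderated standard error as bars, genes in rows coloured by role, and a dashed line at the median of all genes tested. The median of the 30 genes is -0.32 in Oli-neu with MB1, -0.28 in Oli-neu with D341 and -0.50 in MB1 with Oli-neu, against -0.06, -0.16 and -0.17 for all genes.

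Across the 30 genes, the fold changes of the lines had little order in common. The fold changes of MB1 with Oli-neu and of Oli-neu with MB1, which share no library, had a Pearson r of 0.14 and a Spearman rho of 0.10 over 30 genes, given as a description. Between MB1 with Oli-neu and Oli-neu with D341 the values were -0.19 and -0.22. Birc5, Plk1, Nusap1 and Aurka were among the 6 genes of smallest p both in Oli-neu with MB1 and in MB1 with Oli-neu.

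Libraries of the same number also differed alike within Oli-neu. In the limma fit with culture group as a covariate that called 409 genes (3.33%) between the numbers, 0 of the 30 mitosis genes passed. At an unadjusted p under 0.05, 9 of the 30 were lower in number 2, against 12.3% of all genes, and 1 was higher, Cdc20, against 8.75% of all. The mean was lower in number 2 for 25 of the 30, against 57.1% of all genes, and the median was -0.16, against -0.03. The smallest adjusted p was that of Top2a, at -0.40 (SE 0.08, adjusted p = 0.0833), followed by Mki67 at -0.54 (SE 0.12, adjusted p = 0.108), Ndc80 at -0.36 (SE 0.09, adjusted p = 0.133), Ckap2l at -0.32 (SE 0.09, adjusted p = 0.163), Kif11 at -0.31 (SE 0.10, adjusted p = 0.177) and Ttk at -0.27 (SE 0.08, adjusted p = 0.177). In Ttk, Ndc80, Hmmr, Ckap2l, Top2a and Mki67, 6 of the 30, every library numbered 2 lay below every library numbered 1, against 11.6% of all genes. The pattern was uneven over the groups: 18 of 30 were lower in number 2 in Oli-neu alone (median -0.05), 28 with MB1 (median -0.50) and 17 with D341 (median -0.02). The medians of all genes were 0.02, -0.09 and -0.03. Without Oli-neu with MB1 the median was -0.01, 16 of 30 were lower, and 2 of them had an unadjusted p under 0.05, against 8.32% of all genes. In MB1 the mean of 25 was lower in number 2, against 49.1% of all genes. By group, 24 of 30 were lower in MB1 alone (median -0.33) and 18 with Oli-neu (median -0.05), against medians of -0.02 and 0.02 over all genes. No gene passed in the MB1 fit (0% called by limma), where 0 of the 30 had an unadjusted p under 0.05, against 1.01% of all genes lower and 1.6% higher.

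Transcript composition was set beside the library numbers. Across the 30 genes, the difference between number 2 and number 1 in Oli-neu had a Pearson r of 0.54 with the GC content of the longest coding transcript, and -0.45 with its log2 length. Over all 10984 coding genes tested the values were 0.17 and -0.15. Within single groups the r with GC was 0.29 in Oli-neu alone, 0.64 with MB1, 0.37 with D341 and 0.47 in MB1 alone, and it was -0.17 in MB1 with Oli-neu. The fold changes between cultures had an r with GC of -0.17, -0.11 and 0.02 for Oli-neu with MB1, Oli-neu with D341 and MB1 with Oli-neu, and an r with log2 length of 0.35, 0.13 and -0.34. The 30 genes had a median GC content of 46.2%, from 41.0 to 56.0%, against 50.02% over the coding genes. Cdc20 and Ube2c, at the high end, were the pair whose role median was higher in number 2 (0.15). The number differences of Oli-neu and of MB1 alone, which share no library, had an r of 0.61 and a rho of 0.61 across the 30 genes. Those of MB1 alone and of MB1 with Oli-neu had an r of -0.46. Oli-neu was not set against MB1 with Oli-neu in this way. These are correlations over genes measured in the same few libraries, and the part of GC content or length in the differences was not tested.

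**Figure D4:**
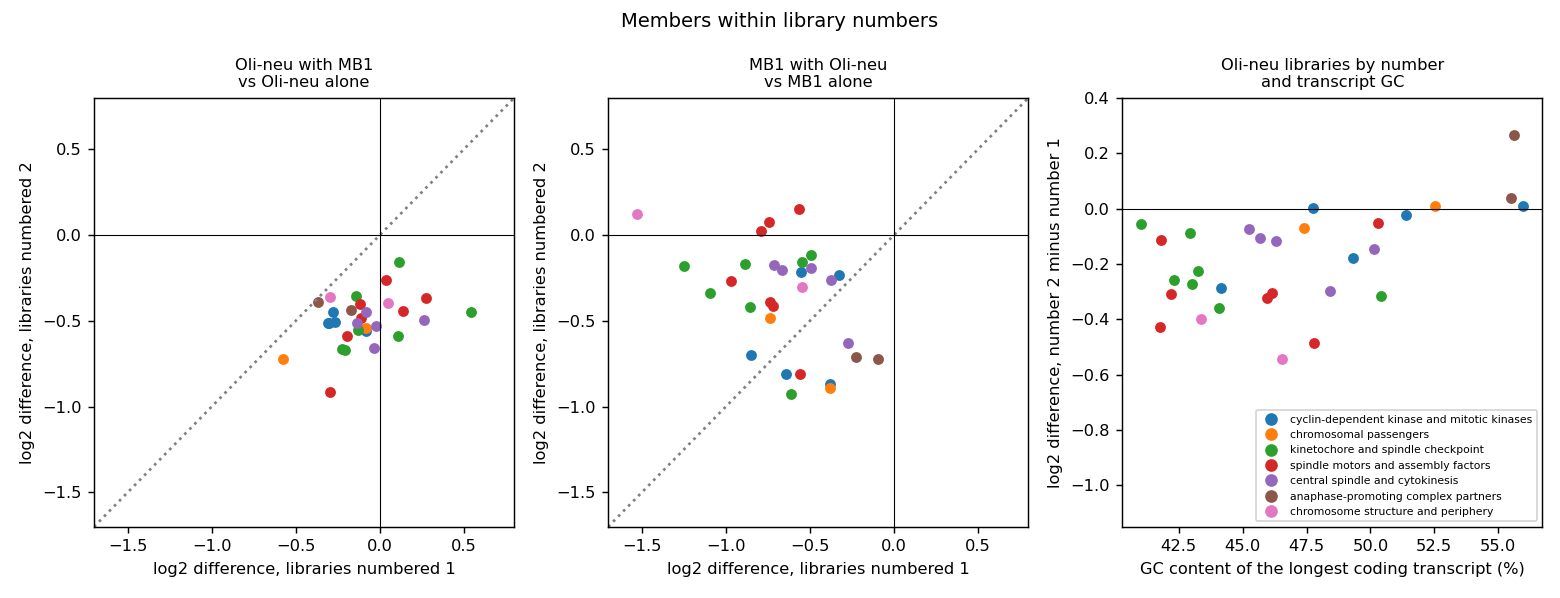
Left and middle, log2 difference of each gene between co-culture and the line alone for the libraries numbered 1 (x axis) and 2 (y axis), with a dotted line of equality; right, log2 difference of number 2 minus number 1 in Oli-neu against the GC content of the transcript in percent. In Oli-neu with MB1 all 30 points lie below the line, with medians of -0.12 and -0.50, while in MB1 with Oli-neu most lie above it, with medians of -0.63 and -0.28.

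Other genes of the mitotic machinery were read from lists of related genes, none of whose members passed in any of the comparisons between cultures. Of 38 other kinetochore genes, 36 had a lower mean in Oli-neu with MB1 (median -0.31), 36 with D341 (-0.28) and 36 in MB1 with Oli-neu (-0.53). Over all genes tested, 62.6%, 75.8% and 70.9% had a lower mean in the same order, with medians of -0.06, -0.16 and -0.17. Cenpm, a subunit of the inner kinetochore, had a mean of 66.0 TPM in Oli-neu alone, 44.4 TPM with MB1 and 43.3 TPM with D341. Of 46 other spindle and centrosome genes, 43, 44 and 42 had a lower mean, with medians of -0.25, -0.28 and -0.38. Kif14, a motor of cytokinesis, had a mean of 12.0 TPM in MB1 alone and 3.18 TPM with Oli-neu, a log2 fold change of -1.68 (SE 0.28, adjusted p = 0.268). Condensin and cohesin genes, which shape and hold chromatids, numbered 23, of which 17, 20 and 22 had a lower mean, with medians of -0.20, -0.23 and -0.43. Pttg1, the gene of securin, had a mean of 136 TPM in Oli-neu alone and 91.0 TPM with MB1. Subunits and partners of the anaphase-promoting complex, which act beyond mitosis too, differed less: 13, 14 and 14 of 18 had a lower mean, with medians of -0.12, -0.15 and -0.23. These medians were near those of all genes. Anapc10, a gene of that list, had a higher mean, 9.04 TPM with MB1 and 8.63 TPM with D341 against 6.65 TPM in Oli-neu alone. Genes of mitotic entry and G2 control had 11, 13 and 12 of 16 lower, with medians of -0.21, -0.25 and -0.34. The replication genes had 39, 40 and 38 of 40 lower, with medians of -0.46, -0.37 and -0.55, so their medians lay further below 0 than those of the mitosis genes in each comparison.

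Transcription factors of cell cycle genes were read in the same way. Of those tested, 15 of 22 had a lower mean in Oli-neu with MB1 (median -0.10) and 20 of 22 with D341 (-0.19). In MB1 with Oli-neu it was 23 of 23 (-0.49). The shares of all genes were 62.6%, 75.8% and 70.9% in the same order, so the count in Oli-neu with MB1 was near that of all genes. The difference between the lines was not tested. Foxm1, which acts with MuvB at CHR promoters in G2, had a mean of 15.6 TPM in Oli-neu alone and 11.2 TPM with D341, and a mean of 28.9 TPM in MB1 alone and 16.2 TPM with Oli-neu. Tfdp1, the dimer partner of E2F factors, had a mean of 16.5 TPM in Oli-neu alone and 11.5 TPM with MB1, and 55.0 TPM in MB1 alone and 31.6 TPM with Oli-neu. Nfyc, a subunit of NF-Y, had a mean of 27.3 TPM in MB1 alone and 14.5 TPM with Oli-neu, a log2 fold change of -0.88 (SE 0.17, adjusted p = 0.282).

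Markers of other cell types were read in the same libraries. Summed levels of 6 fibroblast and pericyte markers moved with the Oli-neu groups, from 95.9 to 101 TPM alone, 74.6 to 87.3 TPM with MB1 and 61.2 to 74.2 TPM with D341. Nearly all of it was Col3a1, and of the defining markers Pdgfrb was listed at 0 in every Oli-neu library and Dcn reached 0.107 TPM. In MB1 that sum reached 0.571 TPM. Summed levels of 8 oligodendrocyte lineage markers were 939.7 and 1099 TPM in MB1 alone against 764 and 635 TPM with Oli-neu. Most of that sum was Olig1, at 655 and 833 TPM alone against 575 and 455 TPM, and Olig2. Of the 6 tested, 4 had a lower mean and 2 a higher one. The 9 markers of hedgehog medulloblastoma and granule precursors summed to 130.2 and 110.3 TPM alone against 151 and 174 TPM. Zic1 was most of this sum, at 84.3 and 63.7 TPM alone against 101 and 125 TPM. Ptch1 was at 18.4 and 14.2 TPM against 17.5 and 15.7 TPM. Of the 5 tested, 2 had a lower mean and 3 a higher one. In Oli-neu the oligodendrocyte sum was 612 to 685 TPM alone, 605 to 705 TPM with MB1 and 543 to 568 TPM with D341. Microglial, endothelial and neuronal markers summed to at most 0.727, 4.03 and 9.68 TPM in any library. The part of these shifts in the mitosis result was not tested.

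Some of the 30 genes share sequence with other genes, which bears on how reads were assigned. Of the 31-base words in Ccnb1 transcripts, 45.9% also occur in other genes, chiefly Ccnb1-ps, Gm12856 and Gm8416, which reached 0.155 TPM at most. The share was 27.4% for Cdc20, 17.0% for Ndc80, 15.0% for Plk1 and 10.98% for Racgap1. For Ndc80 the sharing gene 2700099C18Rik was itself at 10.8 to 22.3 TPM, so the split between this pair is uncertain. For Racgap1, AC148020.1 and Gm47929 shared more words than G2e3. No level was found for AC148020.1, Gm47929 was at 0 TPM, and G2e3 was at 11.8 to 21.5 TPM. The split of reads between Racgap1 and these genes is uncertain too. Exons of Plk1, Nusap1, Ckap2l, Kif20a, Prc1, Cdc20 and Ube2c overlap those of a gene on the opposite strand, and whether strand was used in quantification is not given in the sources used here.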

How the data were processed

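RNA abundance was measured in 10 mouse libraries from Oli-neu and MB1 cells, after poly(A) selection and directional library preparation, per the labels. The deposited values are TPM, 1 table per line, as made by the authors. Salmon 0.14.1, DESeq2 1.22.2, MultiQC 1.7 and FastQC 0.11.8 are listed, per the submitters' processing notes, beside the builds GRCm38 and GRCh38, with no roles. Each library sums to 1000000 TPM, so depth is unknown and no count test was made. Identifiers were matched to GENCODE M21 symbols for 35099 of 35288. The tables held 0 columns of other samples, and the human D341 table was not used.

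A gene was kept where 2 or more libraries of its table had 1 TPM or more. The test was limma's (3.58.1, R 4.3.3) on log2(TPM + 1), two-sided, using a mean-variance trend, and p was adjusted by Benjamini-Hochberg over every gene kept, with 0.05 as threshold. A single fit held the 6 libraries of Oli-neu and another the 4 of MB1. Errors of fold changes are moderated standard errors (SE). All 30 genes are named, with statistics for the 6 of smallest p in each comparison, and at most 3 genes of each other list are named by the same order. The members and the lists were chosen with earlier results of these data known. The test was tried on simulated data with known changes before use. Alternatives were the pseudocount, the filter, median-ratio scaling, coding genes alone, the empirical Bayes options, a replicate block, a fit of only the libraries compared, and leaving out libraries or groups.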

Additional observations from a re-analysis of the deposited data

How the results depend on the processing

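Across the alternatives for the 4 comparisons between cultures, 0 of the 30 mitosis genes passed. The number of all genes passing in Oli-neu with MB1 was 0, and 3 with a pseudocount of 0.1 TPM, 1 with no filter, 2 with median-ratio scaling, 2 with coding genes alone and 1 with no trend. With D341 it was 3 with no filter, 1 with coding genes alone and 0 to 2 with a library left out; for D341 against MB1 as partner it was 6, 1 and 0 to 3, and 1 with no trend. In MB1 with Oli-neu it was 5 with coding genes alone, 9 with robust estimation and 1 to 112 with a library left out, 112 of them without MB1 alone library 1. The median log2 fold change of the 30 genes ranged from -0.52 to -0.054 in Oli-neu with MB1, from -0.17 to 0.24 for D341 against MB1 as partner and from -0.63 to -0.32 in MB1 with Oli-neu when a library was left out. With median-ratio scaling it was -0.10 for D341, 0.17 for D341 against MB1 and -0.31 for MB1. In D341 against MB1 as partner, 13 of the 30 genes were lower, 0 without Oli-neu with MB1 library 1 and 25 without its library 2, and of the 6 genes of smallest p there, 3 changed sign: Prc1 ranged from -0.54 to 0.054, Ttk from -0.023 to 0.35 and Nuf2 from -0.12 to 0.45, with both ends of each range reached without a library of Oli-neu with MB1. The cause was not tested. The number 2 against number 1 contrast of Oli-neu gave 129 genes with no filter and 125 without Oli-neu with MB1, and a median of -0.28 without Oli-neu alone, -0.0051 without Oli-neu with MB1 and -0.27 without Oli-neu with D341; that of MB1 gave 6 genes at a 5 TPM filter.

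The labels do not say that a number pairs libraries. Deviations of libraries of the same number had a correlation over all genes of 0.62, 0.59 and 0.61 between Oli-neu groups and -0.12 between MB1 groups. Over the 30 genes the values were 0.46, 0.56 and 0.45 between Oli-neu groups and -0.46 between MB1 groups. With the replicate number as a block, 0 genes passed in each of the 4 comparisons, and 9, 5, 0 and 11 of the 30 genes had an unadjusted p under 0.05 with a lower mean in Oli-neu with MB1, Oli-neu with D341, D341 against MB1 as partner, and MB1 with Oli-neu. The shares of all genes were 7.89%, 18%, 7.48% and 8.29% in the same order. A crossed pairing of the MB1 libraries, chosen after seeing the data, also gave 0 genes. Depth is unknown, so no value has a counting interval.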

Other observations

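The spacing of the CCAAT boxes was looked at after their positions had been seen. A pair of CCAAT boxes of the same orientation 31 to 33 bases apart occurred in 6 of the 27 promoters of the mitosis genes (22.2%), against 0.794% of all 32851 promoters. Among the printed sequences, Ccnb2 has boxes at positions -87, -54 and -21 from the start site and Cdk1 has boxes at -80 and -48. In Ccnb1 they stand at -99 and -67, and in Aurka at -51 and -19. These counts describe sequence only, and the spacing was not related to any expression difference.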
